A study of Mus musculus with 9 samples.

Results

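Complement is a set of secreted proteins, cell surface receptors and regulators through which tissue recognizes and tags damaged cells, microbes and antibody. In the classical pathway C1q binds its target and activates the proteases C1r and C1s, which cleave C4 and C2 to form an enzyme that cleaves C3. Factor B drives the alternative pathway, which amplifies the cleavage of C3, and the small fragments C3a and C5a act on receptors of myeloid cells. In heart tissue, macrophages are known as a main source of C1q, while fibroblasts and other stromal cells can produce early proteases and C3. Described here are 9 genes of this system, taken by gene symbol: C1qa, C1qb, C1qc, C1ra, C3, C4b, Cfb, C3ar1 and C5ar1. All 9 were found among the 15149 genes present in both deposited tables, and all 9 passed the filter on low counts that left 14426 genes for testing.

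The mRNA came from ventricular tissue of 9 wild-type C57Bl6N mice, with 3 hearts in each of 3 groups. ISO/PE mice carried an osmotic minipump for 96 h that delivered isoprenaline (ISO, a β-adrenoceptor agonist) and phenylephrine (PE, an α1-adrenoceptor agonist), each at 30 mg/kg per day. ISO mice received isoprenaline alone at 30 mg/kg per day over the same 96 h, and Ctr mice were taken without a pump, so that the effect of the agents and that of the implantation cannot be told apart in a comparison with Ctr. The sample labels give an age of 2 to 3 months, and the study's methods give a somewhat older range. The ISO/PE and ISO groups each held 1 female and 2 males (female2, male1 and male2), whereas the Ctr group held 2 females and 1 male (female1, female2 and male1). Tissue was bulk ventricle, so that more cells of a type and more RNA per cell cannot be told apart in any value below.

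Total counts per heart ranged from 10172249 to 14477063. Levels are given as counts per 1000000 (CPM) on normalised library sizes, and a gene was called changed at a Benjamini-Hochberg adjusted p under 0.05 in edgeR's quasi-likelihood test together with an absolute log2 fold change above 0.6. The 12 cardiomyocyte markers, which name the tissue, summed to 42780 to 61250 CPM in ISO/PE, 69260 to 77320 CPM in ISO and 92270 to 100600 CPM in Ctr hearts, without overlap. Of these 12, 8 were lower in ISO/PE vs. Ctr, 3 in ISO vs. Ctr and 4 in ISO/PE vs. ISO (Myh6, Mb, Ckm and Myl3), and 0 were higher. Of 20 macrophage and monocyte markers, 16 were higher and 1 was lower in ISO/PE than in Ctr hearts, and their summed level was 2096 to 2596 CPM in ISO/PE, 1094 to 1853 CPM in ISO and 582 to 727 CPM in Ctr hearts. In ISO/PE vs. ISO 4 of the 20 were higher and 1 lower. The 4 neutrophil markers measured of 8 listed were at low levels and summed to 12.8 to 25.3 CPM in ISO/PE, 6.29 to 11.5 CPM in ISO and 3.29 to 11.7 CPM in Ctr hearts, with every ISO/PE heart above all others. Csf3r was the 1 of them called, higher in both treated groups vs. Ctr, and S100a8 stayed at or below 3.68 CPM. Cd79a of B cells stayed at or below 1.87 CPM in every heart, while Cd3e and Alb were not analysed here. The part of the cardiomyocyte, macrophage and neutrophil levels in the changes described below was not tested. No measured marker could be at 0 in all hearts, because every transcript in the deposited tables summed to at least 21 counts. Listed genes that were not in both tables, among them 4 of 8 neutrophil and 4 of 9 B, T and NK cell markers, were not measured. The ISO female2 heart had the lowest macrophage marker sum of the ISO group, and the ISO/PE male2 heart had a low level of interferon-induced genes, and changes of a call of the 9 genes without either heart are given beside the gene.

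Of the 9 complement genes, 7 were called higher and 0 lower in ISO/PE vs. Ctr hearts, with a median log2 fold change of 1.60. Across all genes tested, 16.0% were called higher and 10.1% lower in that comparison, with a median of -0.01. In ISO vs. Ctr hearts 8 of the 9 were called higher and 0 lower (median 1.43), against 10.4% higher and 2.99% lower of all genes (median -0.01). In ISO/PE vs. ISO hearts only the receptor genes C3ar1 and C5ar1 were called higher and 0 genes lower (median 0.17), against 3.64% higher and 2.81% lower of all genes. The comparisons ISO/PE vs. Ctr and ISO vs. Ctr share their Ctr hearts, so their values are set side by side and no overlap between their calls is given. All 3 hearts lay above all 3 of the other group for 8 of the 9 genes in ISO/PE vs. Ctr (28.6% of all genes), for 9 of 9 in ISO vs. Ctr (23.1% of all genes) and for 2 of 9 in ISO/PE vs. ISO (17.1% of all genes). In the last comparison 1 gene, C1ra, had all ISO/PE hearts below all ISO hearts, as had 16.3% of all genes.

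**Figure D1:**
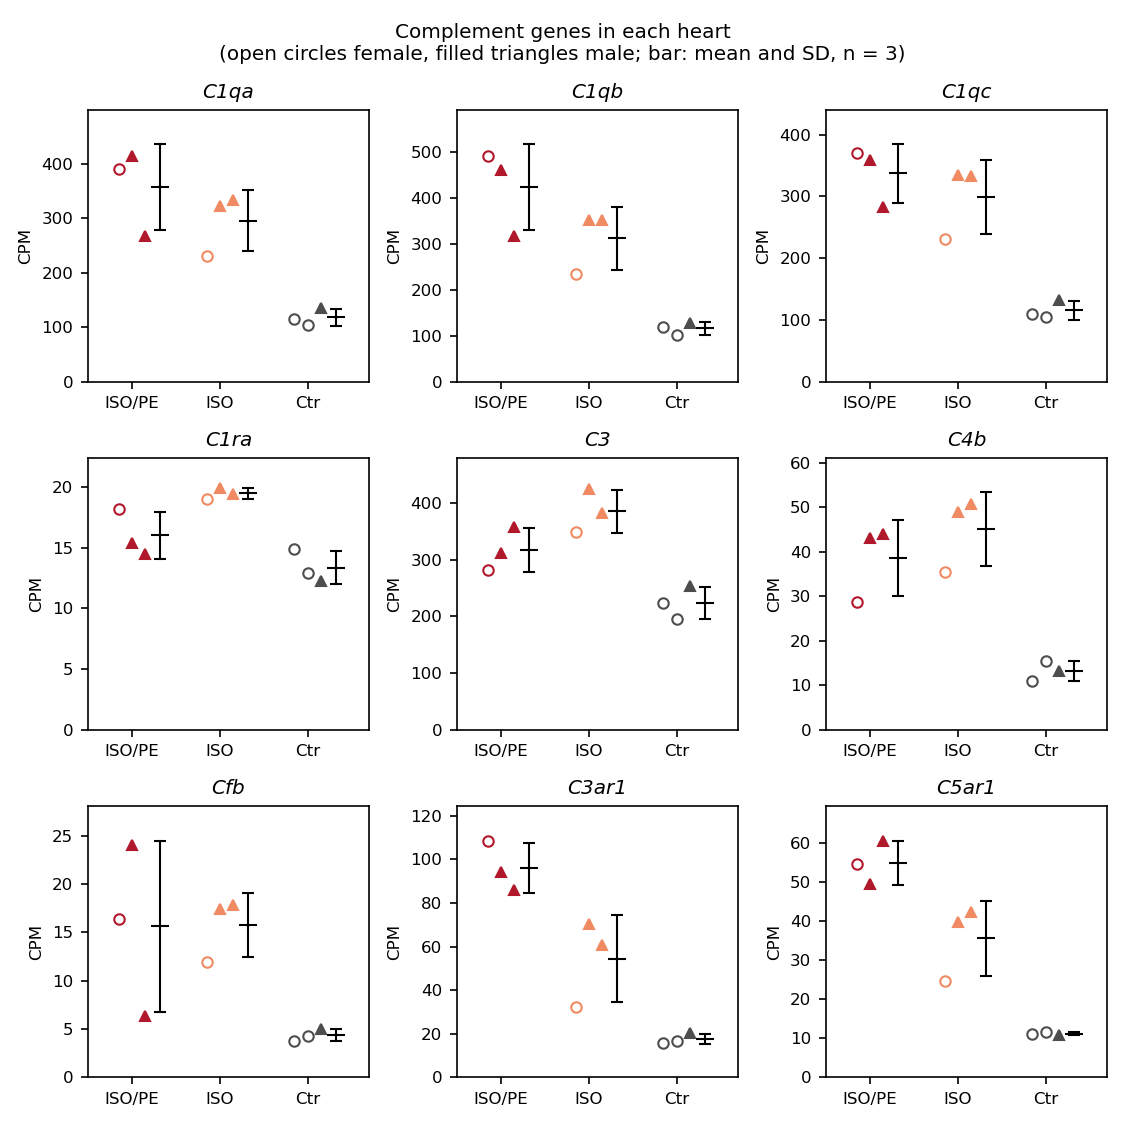
Level of each of the 9 complement genes in CPM (vertical axes, from 0) in the 3 ISO/PE, 3 ISO and 3 Ctr hearts; open circles are females, filled triangles males, and the bar beside each group is its mean and SD. All genes except C1ra separate both treated groups from Ctr, C3ar1 and C5ar1 also separate ISO/PE from ISO, and Cfb spreads widely under ISO/PE, between 6.40 and 24.04 CPM.

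**Figure D2:**
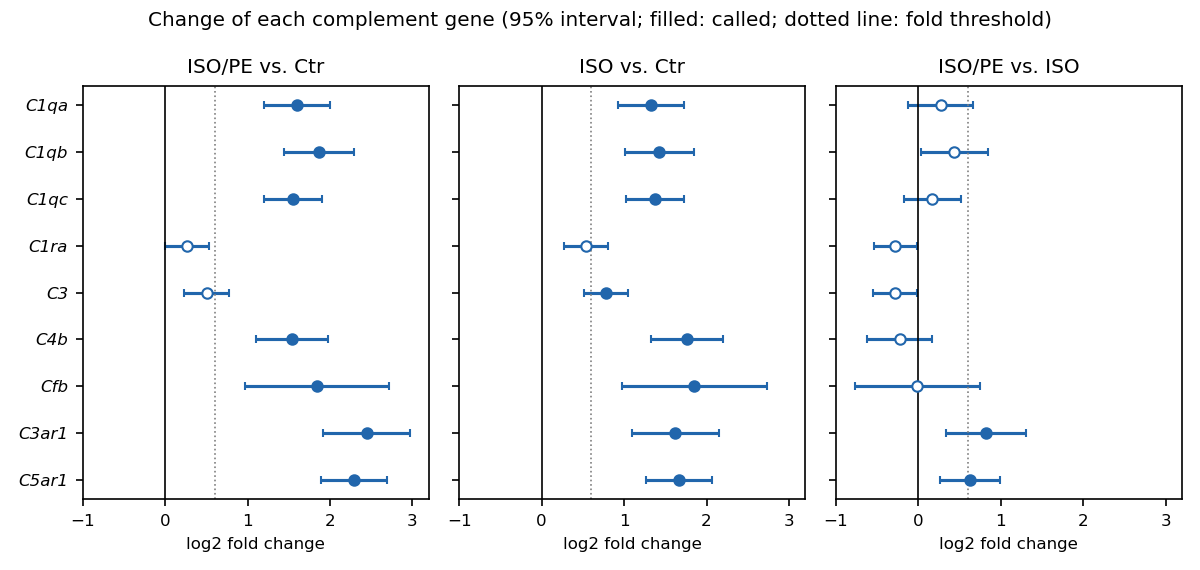
Log2 fold change of each gene (horizontal axes) in the 3 comparisons, named above the panels, with its 95% interval; filled points were called and the dotted line marks the fold threshold of 0.6. Against Ctr the called genes lie between 0.78 and 2.44, and against ISO only C3ar1 (0.82) and C5ar1 (0.63) were called.

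The recognition molecule C1q is assembled from the chains that C1qa, C1qb and C1qc encode, and these genes lie side by side on the minus strand of chromosome 4, within 18.7 kb (mm10, RefSeq gene coordinates: C1qa at chr4:136895916-136898844, C1qb at chr4:136880126-136886200 and C1qc at chr4:136889801-136892936). Their transcripts were the most abundant of the 9 per length. C1qb had 491, 462 and 317 CPM in the ISO/PE hearts female2, male1 and male2, against 118, 101 and 128 CPM in the Ctr hearts female1, female2 and male1. The ISO hearts female2, male1 and male2 had 233, 352 and 352 CPM. Both treated groups lay wholly above Ctr, the ISO female2 heart was the lowest treated heart, and ISO/PE and ISO hearts overlapped. C1qb rose by 1.87 ± 0.19 (log2 fold change ± SE, adjusted p = 2.1e-05, edgeR) in ISO/PE vs. Ctr and by 1.43 ± 0.19 (adjusted p = 0.00039) in ISO vs. Ctr. Its log2 fold change in ISO/PE vs. ISO was 0.44 ± 0.19 (95% interval 0.03 to 0.85, adjusted p = 0.13, edgeR), which was not called. Without the ISO/PE male2 heart that value was 0.61 and was called (adjusted p = 0.037, edgeR).

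C1qa had 391, 414 and 268 CPM in the ISO/PE hearts, 231, 323 and 333 CPM in the ISO hearts and 115, 103 and 135 CPM in the Ctr hearts, each in the heart order given for C1qb. C1qc had 371, 358 and 282 CPM in ISO/PE, 231, 334 and 333 CPM in ISO and 109, 104 and 133 CPM in Ctr hearts. As for C1qb, the ISO female2 and ISO/PE male2 hearts were the lowest of their groups, and no treated heart reached down to the Ctr range. C1qa rose 3.04-fold and C1qc 2.92-fold in ISO/PE vs. Ctr (adjusted p = 4.3e-05 and 2.3e-05, edgeR), and in ISO vs. Ctr they rose 2.51-fold and 2.597-fold. The log2 fold change in ISO/PE vs. ISO was 0.27 (95% interval -0.12 to 0.67) for C1qa and 0.17 (95% interval -0.17 to 0.52) for C1qc, so the interval ended below the fold threshold for C1qc and reached past it for C1qa.

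Per kilobase of transcript, the mean levels of C1qb, C1qa and C1qc under ISO/PE were 385, 332 and 321 RPKM. Under ISO they were 284, 275 and 285 RPKM, and in Ctr hearts 106, 109 and 110 RPKM. The chains were thus at similar levels per length in every group, and the order among them did not exceed the spread between hearts in ISO or Ctr tissue. The ratio of C1qb to C1qc CPM, examined after the values had been seen and therefore without a test, was 1.32, 1.29 and 1.12 in the ISO/PE hearts, 1.01, 1.05 and 1.06 in the ISO hearts and 1.09, 0.97 and 0.97 in the Ctr hearts. All ISO/PE hearts lay above all others in this ratio, although the lowest of them, male2, was close to Ctr female1. Below the C1q genes and C3, the order per length under ISO/PE was C3ar1, C5ar1, C4b, C1ra and Cfb, and in Ctr hearts it was C1ra (4.86 RPKM), C5ar1, C3ar1, C4b and Cfb (1.60 RPKM).

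The genes whose pattern over the 9 hearts was most like that of C1qc, by root mean square difference of centred log2 CPM over all genes tested, were C1qa (0.08), Spi1 (0.10) and Tmem106a (0.10). Spi1 encodes the myeloid transcription factor PU.1. The nearest genes to C1qa were C1qc, Tmem106a (0.10) and Spi1 (0.11), and those to C1qb were the Fc receptor genes Fcgr3 (0.12) and Fcer1g (0.12), followed by C1qa (0.12).

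Since the C1q genes moved together, their promoters are shown, as RefSeq gives them on GRCm38.p6 (mm10). Of the 9 genes, 6 had an entry in the promoter table used, and C1qa, C4b and Cfb had none. The window searched ran from 250 bases before to 50 bases after the annotated start, and the 250 bases before the start are printed 5′ to 3′ on the strand of the gene, for C1qb from chr4:136886201-136886450 and for C1qc from chr4:136892915-136893164 (minus strand). Capitals mark matches to a searched motif on either strand, which here were the PU.1 box GAGGAA (found in 28.3% of 32851 promoters) and the NF-kB consensus (8.46%).
C1qb: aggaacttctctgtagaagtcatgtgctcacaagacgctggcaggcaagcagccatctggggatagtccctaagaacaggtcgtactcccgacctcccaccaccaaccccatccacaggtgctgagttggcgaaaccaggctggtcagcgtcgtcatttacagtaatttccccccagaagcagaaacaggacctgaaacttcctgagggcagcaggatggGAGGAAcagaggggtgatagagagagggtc
C1qc: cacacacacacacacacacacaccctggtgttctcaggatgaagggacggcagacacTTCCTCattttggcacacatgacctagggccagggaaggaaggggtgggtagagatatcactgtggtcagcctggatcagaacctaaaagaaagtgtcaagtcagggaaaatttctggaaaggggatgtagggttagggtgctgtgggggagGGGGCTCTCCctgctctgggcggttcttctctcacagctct
The C1qb window held 1 match to GAGGAA, starting at position -30 from the start, and the C1qc window held 1 on the opposite strand at -193 and 1 match to the NF-kB consensus at -41. The start used for C1qc lay just inside the gene span given above, so the last printed C1qc bases fall within that span. Neither window matched the other motifs searched, which were TTCNNNGAA (STAT, 8.30% of promoters), GAAANNGAA (interferon response core, 8.56%), TTGCNNAA (C/EBP, 10.8%) and TGANTCA (AP-1, 7.81%).

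To see whether C1q moved apart from the macrophage signal of the tissue, the summed CPM of C1qa, C1qb and C1qc was divided by the summed CPM of the 20 macrophage and monocyte markers. The ratio was 0.48, 0.58 and 0.41 in the ISO/PE hearts, 0.64, 0.57 and 0.55 in the ISO hearts and 0.52, 0.53 and 0.54 in the Ctr hearts. ISO/PE hearts spread across the Ctr range, while all ISO hearts lay above all Ctr hearts. On the log2 scale the difference was -0.12 in ISO/PE vs. Ctr (p = 0.5), 0.13 in ISO vs. Ctr (p = 0.1) and -0.26 in ISO/PE vs. ISO (p = 0.3) by 2-sided exact permutation tests, for which 0.1 is the smallest p that 3 against 3 hearts allow. For both comparisons of ISO/PE hearts the sign depended on the choice of markers. With only the defining markers Csf1r and Adgre1 in the denominator, the ratio was 3.58, 4.34 and 3.58 in ISO/PE, 3.49, 3.40 and 3.62 in ISO and 2.62, 2.75 and 2.85 in Ctr hearts, and the log2 difference was 0.48 in ISO/PE vs. Ctr (p = 0.1) and 0.13 in ISO/PE vs. ISO (p = 0.3) by the same exact test. The macrophage gene Lyz2, which encodes lysozyme, carried much of the longer sum, with 904 to 1274 CPM in ISO/PE and 221 to 274 CPM in Ctr hearts.

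**Figure D3:**
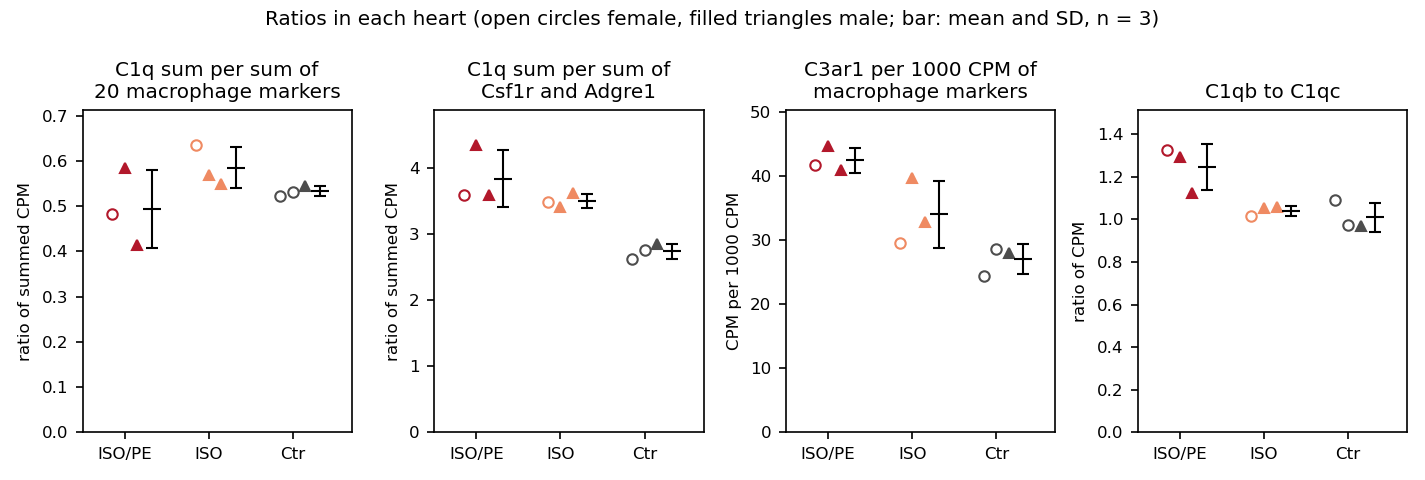
Ratios in each ISO/PE, ISO and Ctr heart (vertical axes from 0): summed C1q CPM per summed CPM of 20 macrophage markers, the same per Csf1r and Adgre1, C3ar1 CPM per 1000 CPM of macrophage markers, and C1qb to C1qc; open circles are females, filled triangles males, bars give mean and SD. The first ratio overlaps between ISO/PE and Ctr hearts (0.41 to 0.58 against 0.52 to 0.54), whereas in the others all ISO/PE hearts lie above all Ctr hearts.

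C1ra encodes the protease C1r of the classical pathway and lies on the plus strand of chromosome 6 (chr6:124512621-124523440). It had 18.2, 15.4 and 14.5 CPM in the ISO/PE hearts, 19.0, 19.9 and 19.4 CPM in the ISO hearts and 14.9, 13.0 and 12.2 CPM in the Ctr hearts. The ISO hearts lay close together and above both other groups, and ISO/PE and Ctr hearts overlapped. The log2 fold change in ISO vs. Ctr was 0.54 ± 0.12 (adjusted p = 0.0074, edgeR), which passed the test but not the fold threshold. It passed that threshold too in 4 of 18 alternatives. These included the fit without the Ctr female1 heart (0.61, adjusted p = 0.013, edgeR) and that with a replicate block (0.67). The others were libraries scaled by total counts (0.601) and to cardiomyocyte markers (0.92). The value was 0.26 ± 0.12 (adjusted p = 0.095) in ISO/PE vs. Ctr and -0.28 ± 0.12 (95% interval -0.54 to -0.02, adjusted p = 0.13) in ISO/PE vs. ISO. Mice carry a close copy of this gene, C1rb, which had 0 transcripts in the joined tables. Reads of the copies may have been split or lost, so the level of C1ra is uncertain. Its nearest genes by pattern were Olfml1 (0.06), Zfp703 (0.07) and Steap3 (0.09).

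C3, the component on which all pathways converge, lies on the minus strand of chromosome 17 (chr17:57203967-57228136) and was the fourth most abundant of the 9 genes per length in every group, at 62.3 RPKM under ISO/PE, 75.6 RPKM under ISO and 43.9 RPKM in Ctr hearts. It had 282, 312 and 359 CPM in the ISO/PE hearts, 349, 424 and 383 CPM in the ISO hearts and 223, 196 and 253 CPM in the Ctr hearts. Every treated heart exceeded every Ctr heart, and ISO/PE and ISO hearts overlapped only through ISO/PE male2 and ISO female2. C3 rose by 0.78 ± 0.12 (adjusted p = 0.001, edgeR) in ISO vs. Ctr. The log2 fold change in ISO/PE vs. Ctr was 0.50 ± 0.12 (adjusted p = 0.0058, edgeR), below the fold threshold, and in ISO/PE vs. ISO it was -0.28 ± 0.12 (95% interval -0.55 to -0.01, adjusted p = 0.14). With libraries scaled by total counts or to cardiomyocyte markers, C3 was also called in ISO/PE vs. Ctr (0.61 and 1.39). Per 1000 CPM of macrophage markers C3, examined after the values had been seen, stood at 109 to 171 CPM in ISO/PE, 207 to 319 CPM in ISO and 337 to 347 CPM in Ctr hearts, a ratio that was lowest under ISO/PE and did not overlap between the groups. Its nearest genes by pattern were Insyn1 (0.11), Timp2 (0.11) and Creb5 (0.12).

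C4b (chr17:34728139-34743902) encodes complement C4, whose cleavage product forms part of the classical C3-cleaving enzyme. It had 28.6, 43.1 and 43.9 CPM in the ISO/PE hearts, 35.5, 48.9 and 50.6 CPM in the ISO hearts and 10.9, 15.5 and 13.3 CPM in the Ctr hearts. Both treated groups lay wholly above Ctr, and in each of them the female heart was the lowest. C4b rose 2.91-fold in ISO/PE vs. Ctr (log2 1.54 ± 0.20, adjusted p = 9.1e-05, edgeR) and 3.40-fold in ISO vs. Ctr (log2 1.76 ± 0.20, adjusted p = 0.00015). Between ISO/PE and ISO the log2 fold change was -0.23 ± 0.18 (95% interval -0.62 to 0.17, adjusted p = 0.43). The nearly identical copy C4a, annotated as a transcribed pseudogene, had 0 transcripts in the joined tables. The counts of C4b may hold reads of C4a or lack reads that matched both. The gene most like C4b by pattern was Fcna (0.20), which encodes a ficolin, a recognition molecule of the lectin pathway, followed by Enkur (0.202) and Sbsn (0.205).

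Cfb encodes factor B, the serine protease of the alternative pathway, and lies 112 kb from C4b on chromosome 17 (chr17:34856374-34862514). It was the least abundant of the 9 per length in every group, although under ISO/PE it differed from C1ra by less than the spread between hearts (5.72 and 5.83 RPKM). It had 659 counts over the 3 ISO/PE hearts, 588 over the ISO hearts and 135 over the Ctr hearts. It had 16.4, 24.04 and 6.40 CPM in the ISO/PE hearts, 11.9, 17.4 and 17.9 CPM in the ISO hearts and 3.74, 4.32 and 4.996 CPM in the Ctr hearts. The ISO/PE male2 heart lay just above the Ctr range and below every ISO heart. Cfb rose by 1.84 ± 0.40 (adjusted p = 0.0029, edgeR) in ISO/PE vs. Ctr and by 1.85 ± 0.40 (adjusted p = 0.0061) in ISO vs. Ctr, the widest errors among the 9 genes. Between ISO/PE and ISO its log2 fold change was -0.01 ± 0.35, with a 95% interval of -0.77 to 0.75 that covers a change past the fold threshold in either direction. Without ISO/PE male2 the values were 2.21 in ISO/PE vs. Ctr (adjusted p = 3.4e-05) and 0.36 in ISO/PE vs. ISO (adjusted p = 0.26, edgeR). Of the exon bases of Cfb, 79.5% are shared with the overlapping gene model Gm20547 on the same strand, so its counts cannot be assigned to Cfb alone.

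The genes most like Cfb by pattern were Usp18 (0.17), Epsti1 (0.21) and Lgals3bp (0.21), of which Usp18 was also on a list of 20 interferon-induced genes. On that list 17 genes were higher in ISO/PE vs. Ctr, 19 in ISO vs. Ctr and 0 in ISO/PE vs. ISO. Their mean log2 CPM above the Ctr mean was 1.52, 2.12 and 0.60 in the ISO/PE hearts female2, male1 and male2, and 1.65, 1.73 and 1.71 in the ISO hearts. Cfb stood at 1.88, 2.43 and 0.55 above the Ctr mean in the same ISO/PE hearts and at 1.43, 1.97 and 2.01 in the ISO hearts. C2, which encodes the classical pathway counterpart of factor B, stood at 1.21, 1.87 and 0.73 in the ISO/PE hearts and at 1.68, 1.55 and 1.46 in the ISO hearts. The ISO/PE male2 heart was the lowest treated heart in all 3 measures and ISO/PE male1 the highest. The part of the interferon-induced genes in the level of Cfb was not tested.

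**Figure D4:**
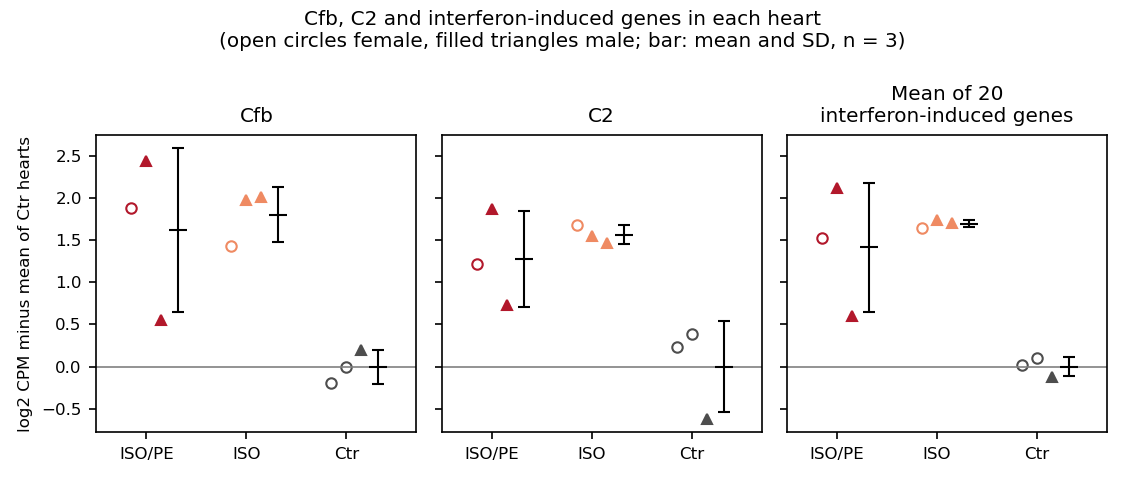
Log2 CPM minus the mean of the Ctr hearts (vertical axis) for Cfb, C2 and the mean of 20 interferon-induced genes in each ISO/PE, ISO and Ctr heart; open circles are females, filled triangles males, bars give mean and SD. ISO/PE male2 is the lowest treated heart in every panel (0.55, 0.73 and 0.60).

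C3ar1 (chr6:122847140-122856157) and C5ar1 (chr7:16246743-16259540) encode the G protein-coupled receptors for C3a and C5a, which guide and activate myeloid cells. C3ar1 had 108, 94.3 and 85.8 CPM in the ISO/PE hearts, 32.3, 70.4 and 60.9 CPM in the ISO hearts and 16.0, 16.7 and 20.4 CPM in the Ctr hearts. The groups did not overlap in any pair, and the ISO female2 heart lay well below both ISO males. C3ar1 rose 5.44-fold in ISO/PE vs. Ctr (log2 2.44 ± 0.24, adjusted p = 1.6e-05, edgeR), the largest increase among the 9 genes, and 3.08-fold in ISO vs. Ctr (log2 1.62 ± 0.24, adjusted p = 0.00069). In ISO/PE vs. ISO it rose by 0.82 ± 0.22 (95% interval 0.34 to 1.30, adjusted p = 0.030, edgeR).

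C5ar1 had 54.7, 49.6 and 60.7 CPM in the ISO/PE hearts, 24.6, 39.9 and 42.3 CPM in the ISO hearts and 11.04, 11.6 and 10.9 CPM in the Ctr hearts. Again no pair of groups overlapped and ISO female2 was the lowest treated heart. C5ar1 rose 4.91-fold in ISO/PE vs. Ctr (log2 2.30 ± 0.18, adjusted p = 5.3e-06, edgeR), 3.17-fold in ISO vs. Ctr (log2 1.67 ± 0.18, adjusted p = 0.00014) and by 0.63 ± 0.17 in ISO/PE vs. ISO (95% interval 0.27 to 0.99, adjusted p = 0.028). Per length both receptors stood at like levels, with 22.4 RPKM for C3ar1 and 21.7 RPKM for C5ar1 under ISO/PE, 12.7 and 14.0 RPKM under ISO, and 4.12 and 4.41 RPKM in Ctr hearts.

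The calls of both receptors in ISO/PE vs. ISO were not stable. With all hearts kept, both were lost when only these 2 groups entered the fit (adjusted p = 0.064 for C3ar1 and 0.063 for C5ar1, edgeR) and with a replicate block. Without ISO female2, C3ar1 had a log2 fold change of 0.55 (adjusted p = 0.033) and C5ar1 one of 0.42 (adjusted p = 0.041, edgeR), both under the fold threshold. Without ISO/PE female2, the adjusted p was 0.11 for C3ar1 and 0.081 for C5ar1. The call of C3ar1 was also lost without ISO/PE male1 (adjusted p = 0.056) and that of C5ar1 without ISO/PE male2 (adjusted p = 0.064, edgeR). In all of these fits the direction was the same, and in both comparisons with Ctr the receptors were called without any 1 heart. Like the receptors, the neutrophil marker sum was higher in every ISO/PE heart than in any ISO heart (12.8 to 25.3 against 6.29 to 11.5 CPM). Of the 4 neutrophil markers 0 were called in that comparison. The macrophage marker sum separated these groups too (2096 to 2596 against 1094 to 1853 CPM), as did 17.1% of all genes tested. The part of either sum in the receptor levels was not tested.

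Set against the macrophage markers, after the values had been seen and without a test, C3ar1 stood at 40.9 to 44.7 CPM per 1000 CPM of the 20 markers in ISO/PE, 29.5 to 39.7 in ISO and 24.5 to 28.7 in Ctr hearts. The groups did not overlap on this measure either. C5ar1 stood at 21.1 to 29.0 in ISO/PE, 22.5 to 22.8 in ISO and at most 19.98 in Ctr hearts, where both treated groups lay above Ctr and overlapped with each other. The nearest genes to C3ar1 by pattern were Ifi30 (0.13), Lrrc17 (0.15) and Mmp14 (0.16), and those to C5ar1 were Tnfaip6 (0.09), Capg (0.09) and Fbln2 (0.11). Among the 9 genes C3ar1 and C5ar1 were each other's nearest (0.21), as were C1qa and C1qc (0.08) and C1ra and C3 (0.24).

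The promoters of both receptor genes are shown because theirs were the transcripts that were also higher under ISO/PE than under ISO. The printed 250 bases before the RefSeq start are chr6:122856158-122856407 for C3ar1 and chr7:16259339-16259588 for C5ar1 (GRCm38.p6, minus strand), with matches in capitals. The start used for C5ar1 lay inside the gene span given above, which ends at 16259540. Most of its printed window, with the match, therefore falls within that span and is upstream only of the start used.
C3ar1: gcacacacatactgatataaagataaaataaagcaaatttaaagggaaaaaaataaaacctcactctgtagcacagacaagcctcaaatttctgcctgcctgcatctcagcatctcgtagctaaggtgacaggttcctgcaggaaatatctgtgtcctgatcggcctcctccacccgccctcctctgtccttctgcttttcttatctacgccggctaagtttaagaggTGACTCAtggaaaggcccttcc
C5ar1: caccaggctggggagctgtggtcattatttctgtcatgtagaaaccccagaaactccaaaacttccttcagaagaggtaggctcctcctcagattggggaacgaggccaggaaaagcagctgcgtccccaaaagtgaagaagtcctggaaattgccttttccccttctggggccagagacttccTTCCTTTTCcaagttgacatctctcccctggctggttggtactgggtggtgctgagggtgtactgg
The C3ar1 window held 1 match to the AP-1 motif TGANTCA at -22, and the C5ar1 window held 1 match to GAAANNGAA on the opposite strand at -66. Neither held GAGGAA, which the windows of C1qb, C1qc and C1ra did. The C3 window had 1 match to TTGCNNAA at -45, and that of C1ra had 1 each to GAGGAA, TTCNNNGAA and TTGCNNAA after the start, at 45, 33 and 17.

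Each treated group held 1 female and the Ctr group 1 male, so at least 1 arm of every comparison by sex rested on a single heart, which was assumed to vary like the others. The edgeR fit of the interaction of sex and treatment gave a male minus female log2 fold change for each gene. In ISO/PE vs. ISO it ran from -1.29 (C3ar1) to 0.12 (C4b) and was -0.73 for C5ar1. In ISO/PE vs. Ctr it ran from -0.59 (C3ar1) to 0.60 (C4b). In ISO vs. Ctr it ran from -0.06 (C3) to 0.79 (C5ar1). No difference by sex is drawn from these arms.

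Around these 9 genes, 32 of 50 other listed complement genes were in both tables and all 32 were tested. In ISO/PE vs. Ctr 11 were higher and 3 lower (median log2 fold change 0.32), in ISO vs. Ctr 11 were higher and 1 lower (median 0.38), and in ISO/PE vs. ISO 1 was higher and 1 lower (median -0.10). All genes tested had 16.0% higher and 10.1% lower, 10.4% higher and 2.99% lower, and 3.64% higher and 2.81% lower in these comparisons, so the counts lower vs. Ctr and both counts in ISO/PE vs. ISO lay near the background and say nothing of the list as a whole. The single gene higher in ISO/PE vs. ISO was Clu, which encodes clusterin, a secreted chaperone that restrains the terminal complex. Clu had 4531, 3324 and 3097 CPM in the ISO/PE hearts, 1110, 2265 and 2285 CPM in the ISO hearts and 836, 828 and 728 CPM in the Ctr hearts. It rose by 2.19 ± 0.25 in ISO/PE vs. Ctr, by 1.24 ± 0.24 in ISO vs. Ctr and by 0.95 ± 0.24 in ISO/PE vs. ISO (adjusted p = 4.1e-05, 0.0036 and 0.025, edgeR), with no overlap between groups. Its call in ISO/PE vs. ISO was lost without ISO/PE female2 (0.77, adjusted p = 0.095), with only the 2 groups in the fit (adjusted p = 0.063) and with a replicate block (adjusted p = 0.092, edgeR).

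The single gene lower in ISO/PE vs. ISO was Cd55, which encodes decay-accelerating factor, a membrane protein that dissociates the C3-cleaving enzymes. Cd55 had 19.9, 22.5 and 22.3 CPM in the ISO/PE hearts, 34.3, 34.7 and 35.5 CPM in the ISO hearts and 22.8, 17.3 and 16.2 CPM in the Ctr hearts. All ISO hearts lay above all other hearts. It fell by 0.69 on the log2 scale in ISO/PE vs. ISO (SE 0.12, adjusted p = 0.0058, edgeR), rose by 0.89 ± 0.12 in ISO vs. Ctr (adjusted p = 0.00048) and differed by 0.20 ± 0.12 in ISO/PE vs. Ctr (adjusted p = 0.21). Of the other 6 membrane regulators tested, none was called in any of the 3 comparisons.

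Among the early proteases, C2 (1.33 ± 0.33), C1rl (1.45 ± 0.19) and Masp1 (0.97 ± 0.14), the last a lectin pathway protease, rose in ISO/PE vs. Ctr, with 3 of 6 tested higher. Of the fluid-phase regulators, Cfp (2.08 ± 0.13), which encodes the alternative pathway stabilizer properdin, and Cfi (2.76 ± 0.56), which encodes the protease that inactivates C3b and C4b proteins, rose with Clu, whereas Vtn and Cpn2 were lower. Cfi was near the limit of detection, with 58 counts over the ISO/PE hearts and 6 over the Ctr hearts, 1 of which had none. The receptor list had 4 of 6 higher in ISO/PE vs. Ctr, including the chains of the integrin receptors for cleaved C3, Itgam (2.47 ± 0.18), Itgax (2.96 ± 0.39) and their partner Itgb2 (2.32 ± 0.21) (adjusted p = 4.0e-06, 0.00010 and 1.1e-05, edgeR). Of the recognition molecules, Fcna rose by 1.61 ± 0.22 while Colec11, a collectin, fell by 0.97 in ISO/PE vs. Ctr (SE 0.10, adjusted p = 1.9e-05, edgeR). Of the central and terminal components only C7 and C8g were tested, and neither was called in any comparison. Vtn, Cpn2 and Vsig4 lay outside the rule for named genes and were named after their values had been seen, Vsig4 as the fourth receptor gene that was higher.

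**Figure D5:**
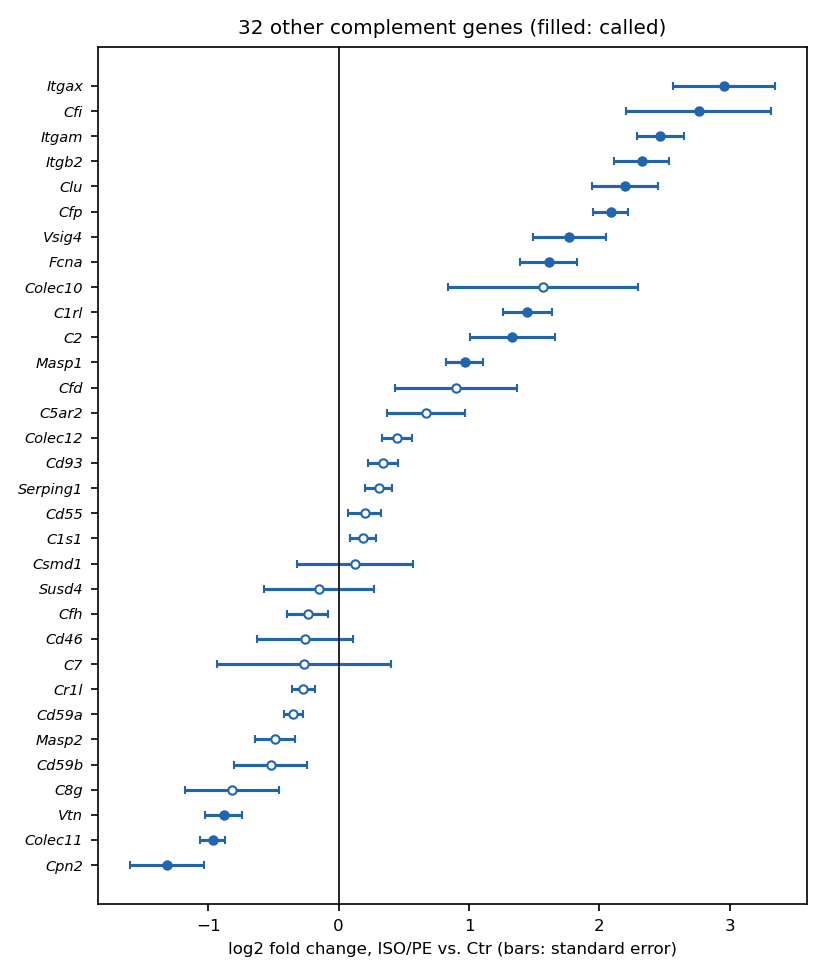
Log2 fold change in ISO/PE vs. Ctr (horizontal axis) of the 32 other complement genes tested, with bars for the standard error; filled points were called. The integrin genes Itgax, Itgam and Itgb2, the regulators Cfi, Clu and Cfp and 5 more were higher, and Vtn, Colec11 and Cpn2 were lower.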

How the data were processed

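RNA-seq of ventricles from 9 mouse hearts was analysed (3 each of ISO/PE, ISO and Ctr). The values used are raw counts for each RefSeq transcript, which the authors obtained before deposit. They aligned reads to mm10 with STAR and counted exons on both strands without using strand. The submitters' notes also name featureCounts, and for these tools no version is given in the sources used here. The deposited signal values, in columns named TMM, are those counts divided by 1 factor per heart, and the authors computed the deposited RPKM values in edgeR. Neither was used, nor were the authors' columns of comparisons (log2 fold change, standard error, p and adjusted p from DESeq2). Transcript lengths were used for levels per kilobase. A table named for ISO/PE and Ctr holds ISO/PE and ISO hearts.

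The tables were joined on 29889 shared transcripts, and the transcript with the highest count was kept for each of 15149 genes. Columns left without a sample numbered 0. Tests used edgeR 4.0.16 (TMM, filterByExpr with minimum count 10, glmQLFTest) in 1 fit over 9 hearts, with Benjamini-Hochberg adjustment over 14426 genes, and were tested on simulated data. R 4.3.3, Python with scipy and matplotlib drew and computed the rest. Log2 CPM used a prior count of 2. Ratios were compared by exact permutation. Beyond treatment, dose, time, age, sex and number, the labels do not tell how the animals were handled. The p-values rest on the variation between these hearts. Genes named were the 9 members, other complement genes called in ISO/PE vs. ISO, the 3 largest changes per sublist among those called in ISO/PE vs. Ctr, and the 3 genes most like each member. The members and lists were chosen with earlier results of these data known. Alternatives were DESeq2, limma-voom, other scalings, no filter, other designs, the longest transcript, and leaving out each heart.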

Additional observations from a re-analysis of the deposited data

Results flagged for a closer look

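C6, which encodes a terminal complement component, was in the table of ISO/PE and ISO hearts alone and so entered no comparison. It had a total of 28 counts over 6 hearts, with 8, 7 and 3 in the ISO/PE hearts female2, male1 and male2 and 2, 6 and 2 in the ISO hearts. The lowest sum of any transcript in either deposited table was 21 counts, so C6 was close to that limit. Cr2, which encodes a complement receptor of B cells, was likewise in the table of ISO and Ctr hearts alone, with 2, 3 and 4 counts in the ISO hearts and 6, 5 and 8 in the Ctr hearts (female1, female2 and male1).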

How the results depend on the processing

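Of 486 alternative values for the 9 genes, 455 kept their direction and their side of the threshold, 11 newly passed it, 10 no longer passed it and 10 changed sign. All changes of sign were in ISO/PE vs. ISO and in genes that were not called. With libraries scaled to cardiomyocyte markers C1ra had 0.26, C3 0.23, C4b 0.26 and Cfb 0.49. Cfb also had 0.0038 in DESeq2, 0.048 when scaled by total counts and 0.010 with sex as a covariate. Without ISO male1, ISO male2 or ISO/PE male2 Cfb had 0.079, 0.093 and 0.36. Its lowest value without a single heart was -0.45, of the same sign as in the main fit. The cardiomyocyte scaling moved the median of all genes to 0.89 in ISO/PE vs. Ctr and to 0.52 in ISO/PE vs. ISO. It gave 5 of the 9 genes higher in ISO/PE vs. ISO. Of the 32 other complement genes tested, 22 were higher in ISO/PE vs. Ctr and 10 in ISO/PE vs. ISO. Of all 14426 genes, 10363 and 5130 were higher in these comparisons under that scaling. Since that scaling shifts all genes, these counts are relative to the shift. In ISO/PE vs. ISO, 0 of the 9 genes and 0 other complement genes were higher with only the 2 groups in the fit, and 2 other complement genes were higher when scaled by total counts, in limma-voom, with sex as a covariate or with no fold threshold. Leaving out single hearts gave 0 to 2 of the 9 genes and 0 to 5 other complement genes higher in that comparison, and 7 and 8 to 9 of the 9 in ISO/PE vs. Ctr and ISO vs. Ctr, with 11 to 13 and 10 to 13 other complement genes. Of all 14426 genes, 448 were higher in ISO/PE vs. ISO with only the 2 groups in the fit, against 525 in the main fit. Without single hearts, 282 to 657 were higher in that comparison. The same fits gave 2089 to 2380 in ISO/PE vs. Ctr and 1183 to 1607 in ISO vs. Ctr. Without ISO female2, Serping1 was the 1 other complement gene gained in ISO vs. Ctr, giving 12. Cd55 lost its call in ISO/PE vs. ISO only under the cardiomyocyte scaling (-0.18), 1 of 18 alternatives. The C1q ratio with only Csf1r and Adgre1 was 0.48 in ISO/PE vs. Ctr, 0.13 in ISO/PE vs. ISO and 0.35 in ISO vs. Ctr. The cause of these differences was not tested. Low counts limit Cfi and Cfb in Ctr hearts.

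Hearts with the same name in different groups did not deviate together (correlations of -0.12 to 0.18), so the names were not taken as pairs. With the replicate block, 7 of 9 genes were higher in ISO/PE vs. Ctr, 9 in ISO vs. Ctr and 0 in ISO/PE vs. ISO. In the last comparison C3ar1 had 0.87 (adjusted p = 0.062) and C5ar1 0.65 (adjusted p = 0.052, edgeR). Other complement genes higher numbered 11, 9 and 0 in these 3 comparisons. Of all 14426 genes, 1989, 1079 and 371 were higher with the block, against 2308, 1502 and 525 in the main fit.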

Other observations

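Genes of the acute phase and of gp130 (Stat3) signalling, which in liver and other tissues are induced along with complement components, were higher for 11 of 12 in ISO/PE vs. Ctr, 3 of 12 in ISO vs. Ctr and 5 of 12 in ISO/PE vs. ISO. Their summed level was 971 to 1200 CPM in ISO/PE, 371 to 642 CPM in ISO and 192 to 289 CPM in Ctr hearts, without overlap. Activated fibroblast markers were higher for 7 of 8 in ISO/PE vs. Ctr, 5 of 8 in ISO vs. Ctr and 6 of 8 in ISO/PE vs. ISO, with 4818 to 6279 CPM in ISO/PE, 1416 to 3003 CPM in ISO and 324 to 386 CPM in Ctr hearts. Of all genes tested, 16.0%, 10.4% and 3.64% were higher in these comparisons. Of 10 general fibroblast markers 4 were higher and 1 lower in ISO/PE vs. Ctr (median log2 fold change 0.36). In ISO vs. Ctr 6 were higher and 1 lower (median 0.65), and in ISO/PE vs. ISO 1 was higher and 1 lower (median -0.21). Their sum was 4370 to 4721 CPM in ISO/PE, 4585 to 5368 CPM in ISO and 5031 to 5834 CPM in Ctr hearts. The sum thus did not rise vs. Ctr, although the median fold changes vs. Ctr were above 0.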
